A study of Mus musculus with 13 samples.

Results

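Trp53, the gene for the p53 tumour suppressor, lies on mouse chromosome 11 among closely packed genes of unrelated function. Its neighbours were taken as the rows of both deposited count tables that lie wholly within a 1 Mb window of chromosome 11 (mm9 build) with Trp53 (69393861 to 69405375, plus strand) near its middle. The window held 67 rows of the 24421 genes in the tables. Trp53 itself and Kcnab3, Efnb3 and Cldn7 were left out by the rule, which leaves 63 flanking genes from 68902030 (the start of Vamp2) to 69871397 (the end of Asgr1). Upstream of Trp53, at lower coordinates, lay 17 of them, and 46 lay downstream. The window held 67 rows per Mb against 15.5 per Mb of sequenced bases over the whole chromosome.

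The RNA came from F1-2.1 mouse embryonic stem cells, a female hybrid line (CAST/Ei by 129/Sv/Jae) grown on irradiated embryonic fibroblast feeders. A single clone carried a doxycycline-inducible transgene for CTCF with the change S224E and a 3xFLAG tag, and it kept its own wild-type CTCF. In 2 libraries the cells had been cultured for 6 days with 1 μg/mL doxycycline (plus dox), and in 2 for 6 days without it (minus dox). Each count table held one library of each kind. Cells without the transgene given doxycycline were not analysed here, so the drug and the transgene cannot be told apart.

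CTCF is a zinc finger protein that binds a long DNA motif, blocks enhancers from acting across its sites and halts the extrusion of chromatin loops by cohesin. Glutamate in place of that serine presents a negative charge where the kinase PLK1 can add a phosphate. The comparison asked whether the genes around Trp53 differed in level together with Trp53 when the mutant protein was induced. The neighbourhood holds housekeeping genes such as Polr2a, Eif5a and Eif4a1 beside genes better known from skin, muscle, testis, liver and neurons.

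The reference sequence of the window (NCBIM37, the assembly behind mm9) was searched on both strands for the CTCF core consensus, because the letters around Trp53 show where CTCF could be read from sequence alone. The consensus occurred 17 times in the 1 Mb, against 7.23 times per Mb over chromosome 11. Of these, 9 lay upstream of Trp53, 8 downstream and 0 inside it, and 11 fell within the body of a flanking gene. Both matches nearest to Trp53 on the upstream side lay in Dnah2, at 33.5 and 49.4 kb. The nearest on the downstream side lay in Mpdu1, at 65.5 kb, and the next in Tmem102, at 213.3 kb. Their 40-base surroundings read as follows, 5′ to 3′ on the matching strand, with the 12-base core in capitals. The coordinates are those of the core.
Dnah2, chr11:69344455-69344466, plus strand: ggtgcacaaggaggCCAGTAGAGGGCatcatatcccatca
Dnah2, chr11:69360378-69360389, plus strand: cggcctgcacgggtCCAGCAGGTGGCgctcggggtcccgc
Mpdu1, chr11:69470893-69470904, minus strand: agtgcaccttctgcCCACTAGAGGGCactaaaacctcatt
Tmem102, chr11:69618700-69618711, plus strand: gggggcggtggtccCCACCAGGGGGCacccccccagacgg
In the promoters themselves (250 bases before to 50 after the transcript start in the count tables) the core consensus occurred in 0 of the 63 flanking genes and in 133 of 24349 promoters of all genes (0.546%). The short word CCCTC, on either strand, occurred in 54 of 63 (85.7%) against 68.5% of all promoters, whose median GC content was 56% against 59% for the flanking genes. A match is a description of the letters, and binding was not measured in the tables used here.

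**Figure D1:**
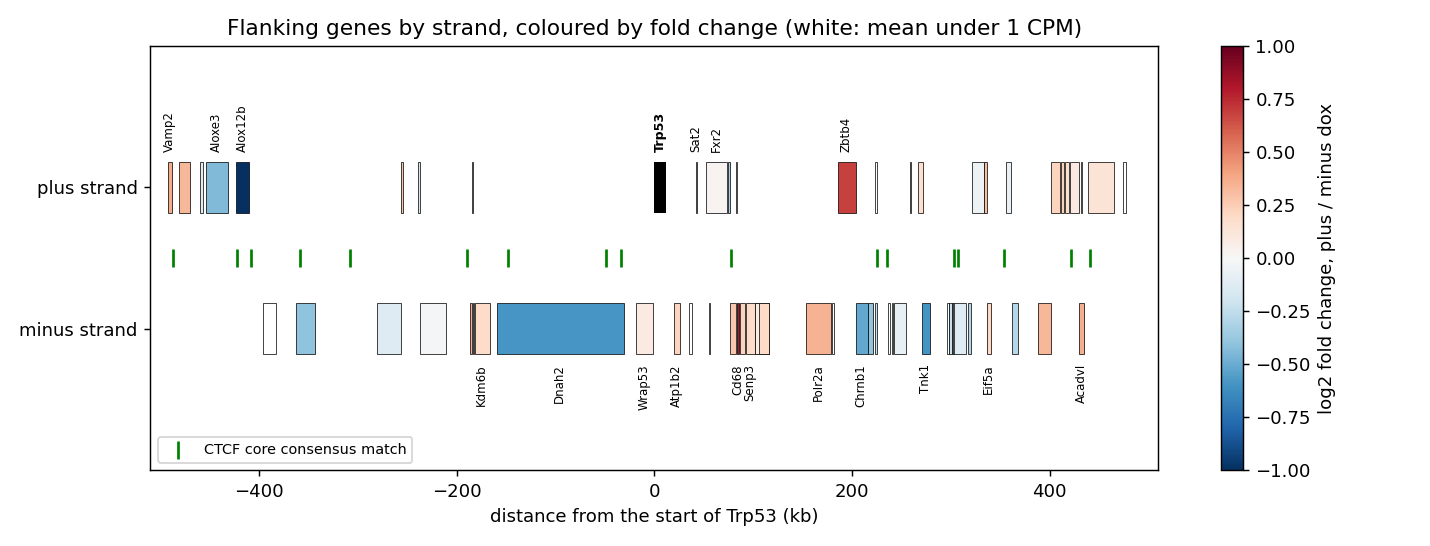
The 63 flanking genes are drawn as boxes by strand against distance from the start of Trp53 in kb, coloured by the fitted log2 fold change (plus over minus dox) and white where the mean level was under 1 CPM. Trp53 is the black box, and green ticks mark the 17 matches to the CTCF core consensus; genes fitted higher and genes fitted lower occur on both strands and on both sides of Trp53.

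The 4 libraries held 22899107 to 30206085 counted reads. Levels are given as counts per 1000000 counted reads (CPM) after scaling by edgeR's trimmed mean of M-values, and 3 reads, the limit that a count of 0 allows, came to 0.0993 to 0.131 CPM per library. All 8 stem cell markers examined, from Pou5f1 to Dppa5a, stood at 299.6 CPM or more in every library. The 10 fibroblast markers, which the feeder layer would supply, summed to 3750.4 CPM in the plus dox replicate 1 library against 2176 in plus dox replicate 2 and 1799 and 2109 in the minus dox libraries. All 10 were fitted higher with dox, and none passed an adjusted p of 0.01 in edgeR. Col1a1, Col1a2, Col3a1, Postn, Dcn, Acta2 and Vim had adjusted p of 0.0241 to 0.0477, with 2.86% of all genes under 0.05. Thy1, Fn1 and Lum had 0.0979 to 0.384. In 9 of the 10 both plus dox values lay above both minus dox values, beside 26.1% of all genes of at least 1 CPM. Fn1 made up most of each sum. The plus dox replicate 1 library had the largest sum, and the values it could set are given without it. Leaving it out does not remove the fibroblast difference. Plus dox replicate 2 also lay above both minus dox libraries for every marker but Fn1 (1357 CPM against 1238 and 1472). Col1a1 was at 94.9 CPM there against 66.6 and 67.7, and Vim at 527 against 360.5 and 429. Where a library is left out, its group is a single library that is assumed to vary like the other group. Calls from such fits compare that library with a pair and are no firmer than those of the full data. In bulk RNA, fewer cells of a type and less RNA per cell cannot be told apart.

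Of the 63 flanking genes, 60 had at least 1 read and were tested, and 51 had a mean level of at least 1 CPM. None of the 60 passed an adjusted p of 0.01 in edgeR's quasi-likelihood test, beside 0.599% of all genes tested. At an unadjusted p under 0.05 there were 14 (23.3%, against 17.8% of all genes tested), and DESeq2 called 1 of the 51 to which it gave an adjusted p, Cd68 (1.96%, against 2.71% of all genes). The count of 0 also rests on the rule: Cldn7, a claudin of tight junctions 373.5 kb downstream of Trp53 that the rule left out, fell from 20.9 and 18.6 CPM without dox to 6.53 and 5.34 with it (log2 fold change −1.73, adjusted p = 0.000876). Kcnab3 (−0.35, adjusted p = 0.419) and Efnb3 (−0.49, adjusted p = 0.274), the other neighbours left out, did not pass.

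Trp53 gives the point of reference. It stood at 1060.4 and 1093 CPM with dox and 809 and 816 without (log2 fold change 0.41, SE 0.08, 95% interval 0.24 to 0.58, adjusted p = 0.0211). It thus did not pass 0.01 in edgeR, and DESeq2 gave it an adjusted p of 0.000735. Among the 51 flanking genes of at least 1 CPM, 2 had a fitted fold change above that of Trp53, Cd68 and Zbtb4. The 95% interval of 25 of them lay wholly below 0.41, that of 25 held it, and that of 1, Cd68, lay wholly above it, leaving aside the error of the Trp53 value itself. The interval of 37 of the 51 held 0.

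The nearest gene to Trp53, Wrap53, starts on the opposite strand with 1.0 kb between the gene bodies, and its protein guides telomerase to Cajal bodies. Its levels were 48.3 and 55.8 CPM with dox and 47.9 and 49.6 without (log2 fold change 0.09, SE 0.12, 95% interval −0.17 to 0.36, adjusted p = 0.735). The groups overlapped. The interval stayed below the Trp53 value of 0.41 but overlapped the Trp53 interval of 0.24 to 0.58. Within each library the ratio of Trp53 to Wrap53 was 22 and 19.6 with dox and 16.9 and 16.4 without. The ratios did not overlap (log2 difference 0.32, two-sided exact permutation p = 0.333, the smallest that 2 against 2 libraries can give).

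On the other side, Atp1b2, a beta subunit of the sodium-potassium pump 7.9 kb away, stood at 36.3 and 51.9 CPM with dox and 37.5 and 37.6 without (log2 fold change 0.23, SE 0.16, adjusted p = 0.502). One plus dox library lay below both minus dox libraries and the other above them. Shbg, which encodes the liver's sex hormone-binding globulin, 22.9 kb away, had 3 to 11 reads per library, and the liver markers Alb, Afp, Ttr and Apoa1 together summed to 0.159 to 0.36 CPM. Sat2, a diamine acetyltransferase gene, was low and overlapped between the groups (1.42 and 1.66 CPM with dox, 1.15 and 1.63 without, log2 fold change 0.16, SE 0.35). Fxr2, an RNA-binding paralogue of the fragile X protein, was the fourth most highly expressed flanking gene per kb of exon, and its levels of 317 and 333 CPM with dox and 326 and 310.3 without also overlapped (log2 fold change 0.03, SE 0.09, 95% interval −0.16 to 0.22). The microRNA gene Mir467f, inside Fxr2, had 0 reads in all 4 libraries, and polyadenylated RNA prepared this way is not a measure of mature microRNAs.

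Upstream beyond Wrap53, Dnah2, a dynein heavy chain of motile cilia whose body spans the nearest upstream core matches, stood at 5.95 and 5.82 CPM with dox and 8.28 and 9.41 without (log2 fold change −0.59, SE 0.21, adjusted p = 0.157). The groups did not overlap. Next to it Kdm6b, which encodes a demethylase of lysine 27 on histone H3, was at 150.4 and 191 CPM with dox and 143 and 158 without, an overlap (log2 fold change 0.19, SE 0.12). Tmem88, a membrane protein that dampens Wnt signalling through Dishevelled, and Naa38, a subunit of an N-terminal acetyltransferase, had log2 fold changes of −0.20 (SE 0.14) and 0.16 (SE 0.14). Their annotated exons overlap on opposite strands by 161 bases, and strand use in the counting was not stated, so their reads may be shared.

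The fold change showed no trend with distance. Across the 51 flanking genes of at least 1 CPM the log2 fold change and the gap to Trp53 had a Spearman correlation of −0.04 and a Pearson correlation of −0.11, given as a description since neighbouring genes share the same 4 libraries. It was 0.09 (Spearman) over the 16 upstream genes and −0.01 over the 35 downstream. The median log2 fold change was 0.16 within 100 kb of Trp53 (13 genes), 0.19 at 100 to 200 kb (7), −0.13 at 200 to 300 kb (12), 0.08 at 300 to 400 kb (10) and 0.14 beyond (9). These medians do not hold the genes left out by the rule, Efnb3 at 20.1 kb (−0.49), Kcnab3 at 247.3 kb (−0.35) and Cldn7 at 373.5 kb (−1.73). Over all 13911 genes of at least 1 CPM the median was 0.00, and over the other 1107 of chromosome 11 it was −0.01. Most of the nearest downstream genes were fitted higher, 10 of 11 within 100 kb, whereas 7 of 8 at 200 to 300 kb downstream were fitted lower, and 49.8% of all genes were fitted higher. The 11 include Tnfsf13, Tnfsf12 and the read-through gene Tnfsfm13, at 0.01, 0.20 and 0.07. The body of Tnfsfm13 overlaps the other bodies on the same strand, so these genes may share reads and are not separate counts.

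**Figure D2:**
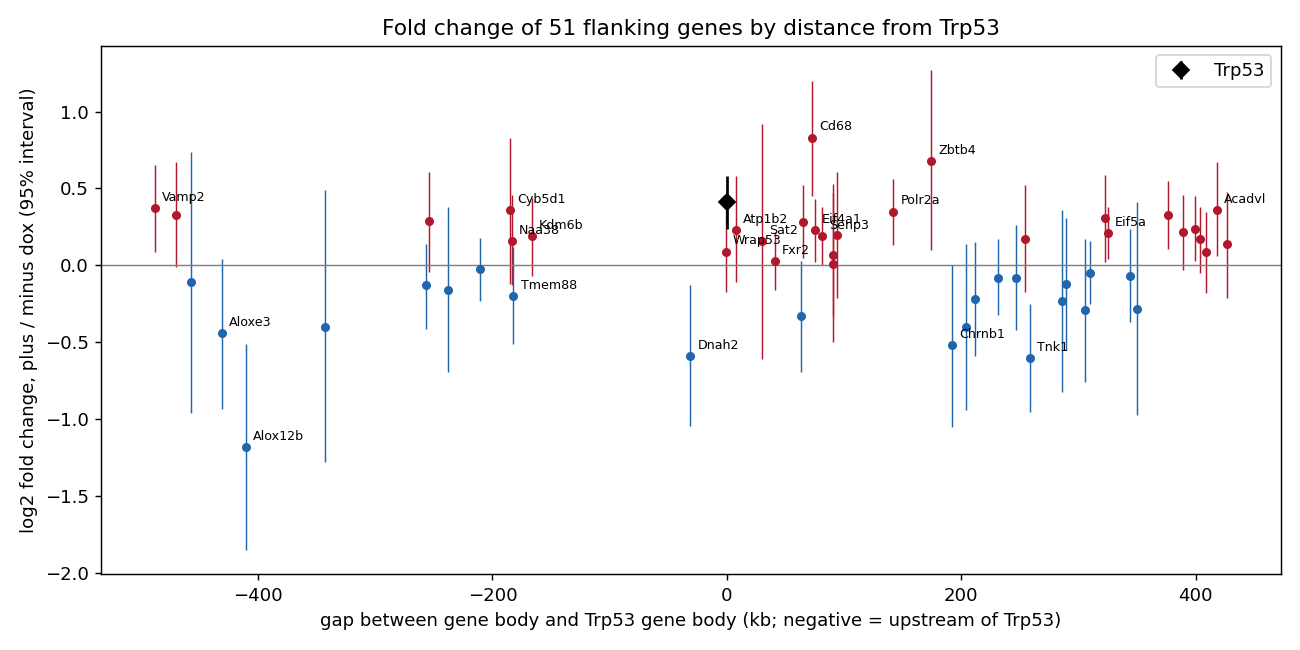
Fitted log2 fold change (plus over minus dox) with its 95% interval for the 51 flanking genes of at least 1 CPM, against the gap to the Trp53 gene body in kb (negative is upstream). Red points are above 0 and blue points below; the black diamond is Trp53 at 0.41, and Cd68 is the gene whose interval lies wholly above that value.

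Cd68 was the flanking gene furthest from 0 by its test. It encodes a heavily glycosylated protein of lysosomes and endosomes that is used as a macrophage marker, and it lies 72.3 kb downstream of Trp53 (chr11:69477715-69479672, minus strand). Its levels were 36.8 and 37.3 CPM with dox and 24.6 and 17.2 without (829, 851, 750 and 431 reads). Both plus dox libraries lay above both minus dox libraries, and the minus dox libraries differed more from each other. The fold was 1.77 (log2 fold change 0.83, SE 0.17, 95% interval 0.45 to 1.20, adjusted p = 0.0263, with 2.86% of all genes under 0.05). DESeq2 gave an adjusted p of 0.00165. Without plus dox replicate 1, the library with the largest fibroblast marker sum, the log2 fold change was 0.83, and without plus dox replicate 2 it was 0.82. Without minus dox replicate 1 or 2 it was 1.11 or 0.59.

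Other macrophage genes were nearly absent. Ptprc, Csf1r, Cd14 and Lyz2 summed to 1.11 and 0.525 CPM with dox and 0.557 and 0.518 without, and Ptprc was at 0 in both plus dox libraries. The gene that precedes Cd68 on the same strand is Eif4a1, whose end lies less than 1 kb from the start of Cd68. Within each library the ratio of Cd68 to Eif4a1 was 0.168 and 0.178 with dox and 0.128 and 0.0977 without, and that of Cd68 to Mpdu1, on its other side, 0.265 and 0.267 against 0.196 and 0.165. Both ratios were higher in both plus dox libraries (two-sided exact permutation p = 0.333 for each, the smallest possible). As Cd68 was named for its own rise, higher ratios follow largely from that choice and are no separate result. GENCODE exons of Cd68 overlap no other gene's.

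The Cd68 promoter is shown because Cd68 came nearest to the threshold among the flanking genes. It holds 1 match to the p53 half-site consensus, in capitals, and no CCCTC on either strand, on chr11:69479623-69479922, minus strand.
Cd68 promoter: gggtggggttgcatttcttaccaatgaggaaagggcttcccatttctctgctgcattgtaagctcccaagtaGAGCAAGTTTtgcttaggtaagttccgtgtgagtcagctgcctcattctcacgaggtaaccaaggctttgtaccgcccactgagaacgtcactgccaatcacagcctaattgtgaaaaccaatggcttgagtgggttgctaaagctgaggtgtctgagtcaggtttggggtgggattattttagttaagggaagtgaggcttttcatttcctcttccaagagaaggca
A half-site match occurred in 6 of the 63 flanking promoters (9.52%) and in 7.43% of all promoters. The others were Hes7, Tnfsf12, the read-through gene Tnfsfm13, Slc35g3 and Fgf11, with log2 fold changes of −0.11, 0.20, 0.07, −1.12 and −0.40 and adjusted p from 0.306 to 0.916. Tnfsf12 and Tnfsfm13 start at the same base, so their promoter and its match are the same sequence counted for each gene. A p53 response element needs a pair of half-sites, which was not searched for.

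The chromatin and transcription genes numbered 11, and all were expressed. Of these, 7 were fitted higher and 4 lower, with a median log2 fold change of 0.19. Polr2a, the largest subunit of RNA polymerase II, stood at 909 and 1070.2 CPM with dox and 729.8 and 825 without. The groups did not overlap (log2 fold change 0.35, SE 0.10, 95% interval 0.13 to 0.56, adjusted p = 0.0806). Without plus dox replicate 1 its log2 fold change was 0.46, and without plus dox replicate 2 it was 0.23. Without minus dox replicate 1 or 2 it was 0.26 or 0.44. Senp3, a nucleolar SUMO protease, stood at 363 and 350.3 CPM against 323 and 303 (log2 fold change 0.19, SE 0.09, adjusted p = 0.284).

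Zbtb4, a zinc finger repressor that binds methylated DNA, had a log2 fold change of 0.68 (SE 0.27, adjusted p = 0.198), and 1 library set it. It was at 15.2 CPM in plus dox replicate 1 and at 8.01, 6.91 and 7.53 in plus dox replicate 2 and the minus dox libraries. Without plus dox replicate 1 the log2 fold change was 0.15. Without plus dox replicate 2, which leaves plus dox replicate 1 as the only library with dox, it was 1.07. Without minus dox replicate 1 or 2 it was 0.62 or 0.75. Plus dox replicate 1 is also the library with 3750.4 CPM of fibroblast markers, whose part in the Zbtb4 value was not tested.

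All 5 genes of translation and RNA were fitted higher, beside 49.8% of all genes of at least 1 CPM. Their log2 fold changes were 0.03 to 0.33, with a median of 0.21, and 0 of 5 passed. Fxr2, Eif4a1, Eif5a and Elp5 had means above 100 CPM, a level at which 1792 of 2809 genes over all genes were fitted higher. Eif5a, the hypusinated elongation factor, had the most reads per kb of exon of all flanking genes, at 1187 and 1171 CPM with dox and 1020.0 and 1022 without. These levels were tight within each group and did not overlap (log2 fold change 0.21, SE 0.08, 95% interval 0.04 to 0.38, adjusted p = 0.173). Eif4a1, the helicase that unwinds mRNA leaders, stood at 219 and 209.9 CPM against 191 and 176 (log2 fold change 0.23, SE 0.09, adjusted p = 0.217). Elp5, an Elongator subunit that was picked out after its values were seen, had the largest value of the group, 108 and 118 CPM against 92.5 and 87.8 (log2 fold change 0.33, SE 0.10, adjusted p = 0.105).

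Genes of membrane trafficking and autophagy were fitted higher in 4 of 5 cases (median 0.24) and those of metabolism in 4 of 4 (median 0.32). The share over all genes of at least 1 CPM was 49.8%, and none of these genes passed the threshold. Vamp2, the vesicle SNARE of synapses, stood at 45.4 and 47.6 CPM with dox and 38.4 and 33.6 without (log2 fold change 0.37, SE 0.13, adjusted p = 0.146). Acadvl, the very-long-chain acyl-CoA dehydrogenase of mitochondria, stood at 36.1 and 31.7 CPM against 27.2 and 25.5 (log2 fold change 0.36, SE 0.14, adjusted p = 0.185). The annotated exons of Acadvl overlap those of its neighbour Dvl2, on the other strand, by 1151 bases. Cyb5d1, a gene with a cytochrome b5 domain, stood at 6.93 and 6.66 CPM against 5.27 and 5.34 (log2 fold change 0.36, SE 0.22, adjusted p = 0.443). In each of these 3 genes, named for being among the 5 highest fold changes, both plus dox libraries lay above both minus dox libraries. The same held for 26.1% of all genes of at least 1 CPM.

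Alox12b and Aloxe3 encode lipoxygenases that act in series to build the lipid barrier of skin, and they lie side by side more than 400 kb upstream of Trp53. Alox12b stood at 1.82 and 1.18 CPM with dox and 3.40 and 3.43 without (41, 27, 104 and 86 reads, log2 fold change −1.18, SE 0.31, 95% interval −1.85 to −0.51, adjusted p = 0.0633). Aloxe3 stood at 4.71 and 5.47 CPM against 6.78 and 7.05 (log2 fold change −0.44, SE 0.22, adjusted p = 0.337). Neither pair of groups overlapped. Without plus dox replicate 1 the log2 fold change of Alox12b was −1.53, and without plus dox replicate 2 it was −0.91. Without minus dox replicate 1 or 2 it was −1.19 or −1.18. Alox8, the third lipoxygenase of the window, had 0 to 5 reads per library. A match to the CTCF core consensus lies within Alox12b, 422.2 kb from Trp53, and its promoter has 3 occurrences of CCCTC and no core match.

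Tnk1, a non-receptor tyrosine kinase, stood at 14.6 and 17.4 CPM with dox and 23.7 and 24.9 without (log2 fold change −0.60, SE 0.16, 95% interval −0.95 to −0.25, adjusted p = 0.0723). Without plus dox replicate 1 its log2 fold change was −0.48, and without plus dox replicate 2 it was −0.73. Without minus dox replicate 1 or 2 it was −0.63 or −0.56. Its exons overlap those of Plscr3, on the opposite strand, by 1333 bases, and Plscr3 had a log2 fold change of the other sign (0.17, SE 0.16). Chrnb1, the beta subunit of the muscle acetylcholine receptor, stood at 4.31 and 3.81 CPM against 5.21 and 6.5 (log2 fold change −0.52, SE 0.24, adjusted p = 0.281). The groups did not overlap in either gene. Tnk1, Chrnb1, Alox12b, Aloxe3 and Dnah2 had the 5 lowest fold changes, a ground for naming them, so groups that lie apart follow largely from that choice. Both plus dox values lay below both minus dox values in 27.7% of all genes of at least 1 CPM.

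Of the remaining role groups, the 8 signalling genes held 5 fitted lower and 3 higher (log2 fold changes −0.60 to 0.20, with Tnk1 the lowest), and the 3 transporter and channel genes of at least 1 CPM ranged from −0.52 to 0.23. Of the 5 synapse and cell surface genes, Cd68, Nlgn2 and Dlg4 were expressed, and the last 2, which organise synapses in neurons, had log2 fold changes of −0.08 and 0.14. The neuronal markers Map2, Syp, Snap25 and Tubb3 summed to 133 and 132 CPM with dox and 121 and 101 without. Tubb3 made up most of that sum and had a log2 fold change of 0.45, while Map2, Syp and Snap25 were at −0.47, −0.54 and −0.38, and none of the 4 passed. The group of 13 genes with no sure role held 7 of at least 1 CPM, with log2 fold changes of −0.29 to 0.22. None of the 60 genes tested in any group passed the threshold.

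**Figure D3:**
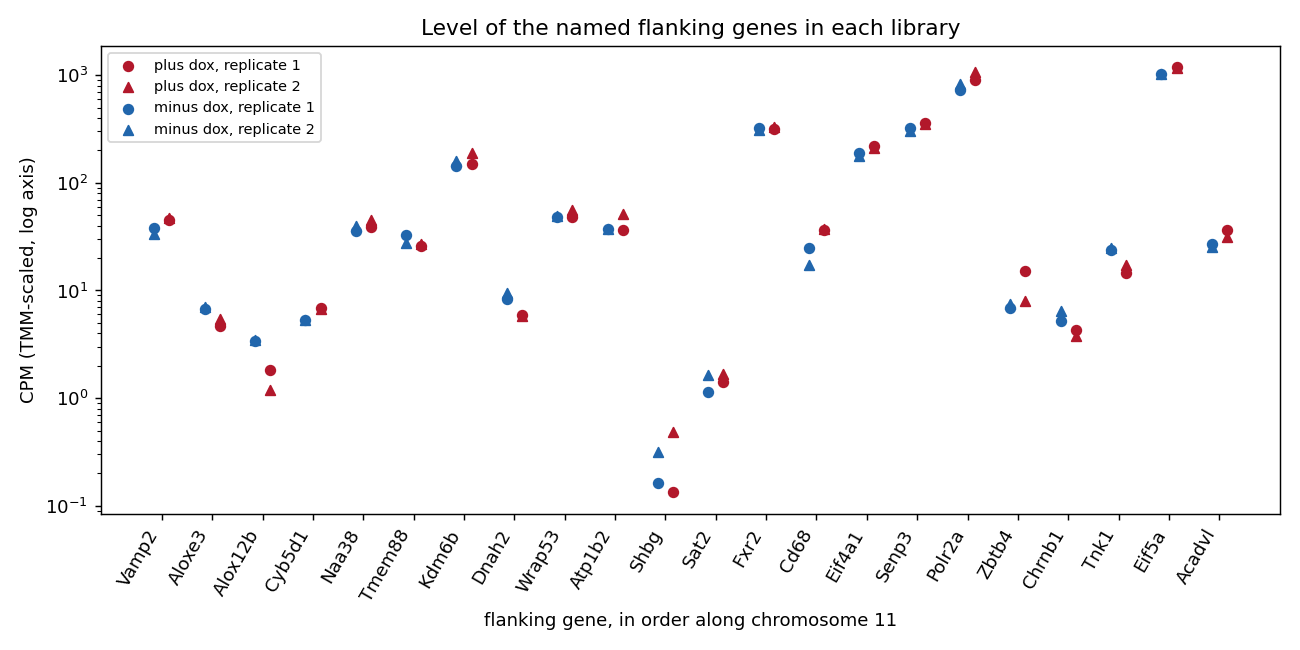
Level in CPM (log axis) of the 22 named flanking genes with reads, in order along chromosome 11, in each of the 4 libraries (red plus dox, blue minus dox; circles replicate 1, triangles replicate 2). In Cd68 both red points sit above both blue points, in Alox12b and Tnk1 both sit below, and in Zbtb4 1 red point stands alone.

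Over the 51 genes of at least 1 CPM, both plus dox values lay above both minus dox values in 18 (35.3%, against 26.1% of all genes) and below them in 10 (19.6%, against 27.7%). At an unadjusted p under 0.05 there were 11 higher (21.6%, against 10.9% of all genes) and 3 lower, Alox12b, Tnk1 and Dnah2 (5.88%, against 12.4%). The 2 tables, each with 1 library of each kind, gave medians of 0.01 (replicate 1) and 0.12 (replicate 2). The genes had the same sign in both in 37 cases, 24 higher and 13 lower, and opposite signs in 14. Across the 51 genes the log2 fold changes of the tables had a Pearson correlation of 0.60 and a Spearman correlation of 0.65, against 0.54 and 0.54 across all genes. Zbtb4 was at 1.13 in the first and 0.09 in the second, and Cd68 at 0.58 and 1.11.

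**Figure D4:**
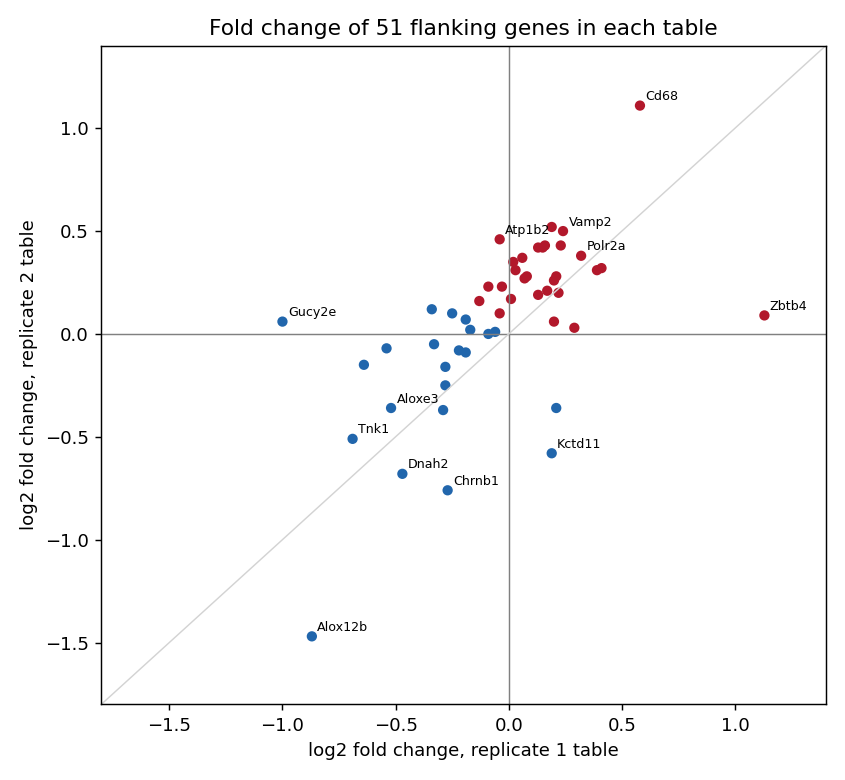
Log2 fold change (plus over minus dox) of the 51 flanking genes in the replicate 1 table (horizontal) and the replicate 2 table (vertical), with red for genes fitted higher and blue for genes fitted lower. The grey line marks equal values; Cd68 and Alox12b lie far from 0 in both tables, and Zbtb4 in the first alone.

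The fold change of the flanking genes differed with their level. The median log2 fold change was −0.28 for the 15 genes of 1 to 10 CPM, 0.15 for the 24 of 10 to 100 CPM and 0.19 for the 12 above 100 CPM. Over all genes in the same ranges it was −0.07 (3941 genes), −0.01 (7161) and 0.06 (2809). Log2 fold change and log2 mean CPM had a Spearman correlation of 0.52 across the 51 flanking genes and 0.14 across all genes, with the same 4 libraries behind every point. The 12 genes above 100 CPM ranged from −0.05 (Neurl4, a ubiquitin ligase adaptor) to 0.35 (Polr2a). Of these 12, 10 were fitted higher, beside 1792 of the 2809 genes of that level over all genes.

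**Figure D5:**
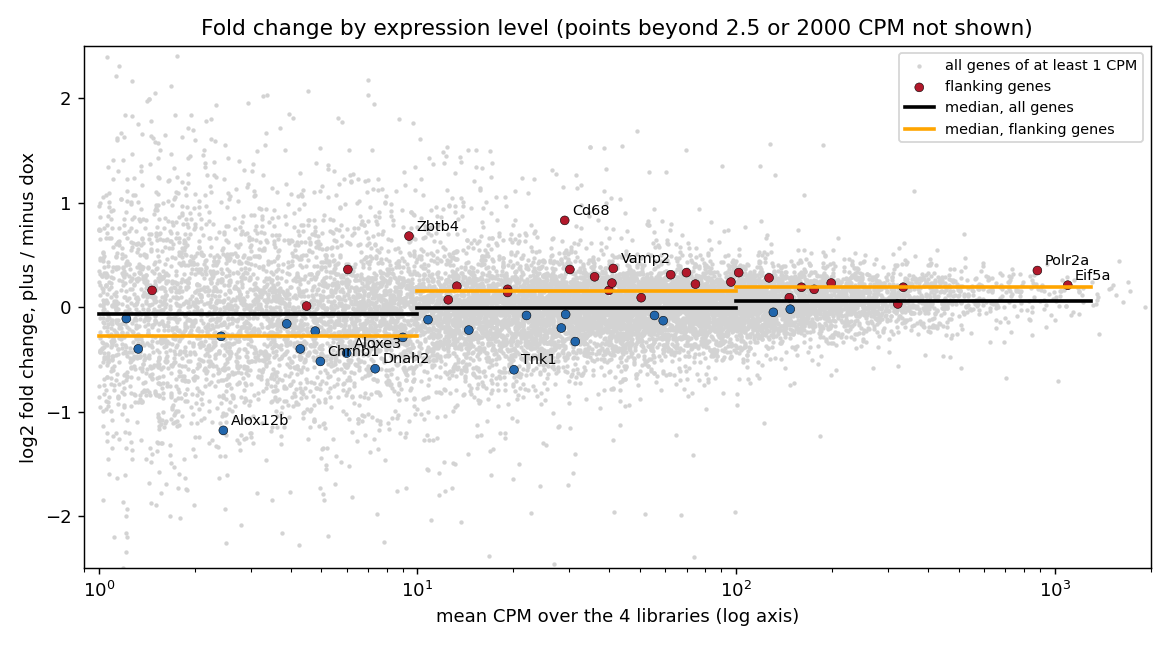
Log2 fold change (plus over minus dox) against the mean CPM of the 4 libraries (log axis), with all 13911 genes of at least 1 CPM in grey and the 51 flanking genes in red (fitted higher) or blue (fitted lower). Bars mark the medians in 3 ranges of level, from −0.28 to 0.19 for the flanking genes (orange) and −0.07 to 0.06 for all genes (black).

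Several flanking genes start back to back, and such pairs differed in how alike their values were. Cntrob, a centriole protein, and Trappc1, a subunit of a vesicle tethering complex, share the shortest gap, 112 bases on chr11:69137376-69137487 (plus strand, CCCTC in capitals, here on the minus strand).
Cntrob to Trappc1: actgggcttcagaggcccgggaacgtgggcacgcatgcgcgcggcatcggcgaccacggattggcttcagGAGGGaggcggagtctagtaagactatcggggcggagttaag
Cntrob had a log2 fold change of −0.13 (SE 0.13) and Trappc1 of 0.29 (SE 0.15). The ratio of Trappc1 to Cntrob was 0.673 and 0.725 with dox and 0.54 and 0.509 without (log2 difference 0.41, two-sided exact permutation p = 0.333, the smallest possible). Across 444 bases Cyb5d1 and Naa38 were at 0.36 (SE 0.22) and 0.16 (SE 0.14), with 145 bases of GENCODE exon shared on opposite strands, and Elp5 and Ctdnep1, which overlap at their starts, were at 0.33 (SE 0.10) and 0.22 (SE 0.11).

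The other 12 flanking genes had a mean under 1 CPM. Of these, Mir467f, Mir6924 and 4933402P03Rik had 0 reads in all 4 libraries, which allows up to 0.131 CPM in the smallest. Mir1934 and Mir324 had at most 3 reads in any library, and no fold is given for them. The other 7 were Alox8, Shbg, Slc35g3, G630025P09Rik, Spem1, Tmem95 and Asgr1, among them Spem1 and Tmem95, known from sperm, and Asgr1, a liver receptor. Slc35g3, with 5 and 13 reads with dox and 24 and 24 without, had the lowest unadjusted p of these (0.0593).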

How the data were processed

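Polyadenylated RNA was sequenced from 2 plus dox and 2 minus dox cultures, which the study's methods call biological replicates. The authors made the deposited counts by trimming reads with cutadapt, aligning them to mm9 with TopHat2, removing duplicates and tabulating uniquely aligned exonic reads per gene in HOMER. Versions and the use of strand were not given in the sources used here. Removing duplicates can compress the highest counts.

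Both tables were joined by gene symbol. Of the 63 flanking genes, 62 had the same transcript in both, Plscr3 being the exception. Genes with at least 1 read in at least 1 library (20044) were tested together with edgeR 4.0.16 (R 4.3.3), with TMM scaling, the quasi-likelihood test and Benjamini-Hochberg adjustment over all of them, at an adjusted p of 0.01. DESeq2 1.42.0 was an alternative. Intervals at 95% used the fitted SE and the moderated degrees of freedom of the test, and the log2 fold changes within a table a prior count of 2. With 22899107 to 30206085 reads per library and 2 libraries per group, the p-values rest on few residual degrees of freedom, and floors cover counting error only. On counts simulated with these library sizes and 1 fixed spread for every gene, the edgeR test recovered 176 of 200 genes changed by 1 on the log2 scale. Only genes above a minimum of reads were changed, and smaller changes were not simulated. The recovery therefore does not give the power for the flanking genes, whose spread and changes differ from those settings.

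Named were genes with adjusted p under 0.05 (edgeR) or 0.01 (DESeq2), the 5 nearest to Trp53 on each side, the 5 highest and 5 lowest fold changes of at least 1 CPM and the 5 with most reads per kb. The flanking genes, role groups and marker lists were chosen with earlier results of these data known. Distances are gaps between gene bodies. Promoters were placed by the transcript starts in the deposited count tables. All sequence came from NCBIM37 and exons from GENCODE M1, in which 59 of 63 genes were found. Chromatin assays of the series were not analysed here.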

Additional observations from a re-analysis of the deposited data

How the results depend on the processing

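Of the 60 flanking genes tested, 0 passed an adjusted p of 0.01 in edgeR, and also with DESeq2 size factors, total counts, filterByExpr, adjusted deviances or only genes of 1 transcript. DESeq2 called 1 (Cd68), a threshold of 0.05 called 1 (Cd68), and 1 Mb on each side of Trp53, chosen after seeing the data, called 1 (Alox15). Leaving out 1 library gave 0 to 3: Alox12b, Cd68 and Polr2a without plus dox replicate 1, Cd68, Zbtb4 and Tnk1 without plus dox replicate 2, and 0 without either minus dox library. Of all genes 120 passed, against 375 with DESeq2, 573 at 0.05, 11 with filterByExpr, 0 with adjusted deviances (3254 at an unadjusted p under 0.05) and 0 to 992 with 1 library left out (992 without plus dox replicate 1, 877 without plus dox replicate 2 and 0 without either minus dox library, with 1753 and 1450 at an unadjusted p under 0.05). The cause was not tested. The median log2 fold change of the flanking genes was 0.09, 0.17 at 10 CPM or more, and −0.01 to 0.09 with 1 library left out, the lowest without plus dox replicate 2.

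The replicate numbers were shared across the groups by table only: deviations of same-numbered libraries correlated at 0.1964 over 13911 genes. With the replicate block 786 genes passed, 3 of them flanking (Alox12b, Cd68 and Polr2a).

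Over 241 refits of the named genes with reads, 10 passed 0.01 and the sign reversed in 7: Fxr2 with total counts (−0.01) and, with 1 library left out, Fxr2 (−0.01 to 0.07), Wrap53 (−0.01 to 0.19), Atp1b2 (−0.05 to 0.47), Sat2 (−0.08 to 0.43) and Shbg (−0.80 to 1.01, with 3 to 11 reads per library).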

Other observations

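Beyond the window, up to 1 Mb from Trp53 on each side, lay 41 further genes, 38 with reads and 29 of at least 1 CPM. Of these 19 were fitted higher and 10 lower, with a median log2 fold change of 0.07. Alox15, a lipoxygenase 752.3 kb downstream, fell from 8.05 and 10 CPM without dox to 3.29 and 2.98 with it (log2 fold change −1.52, SE 0.24, adjusted p = 0.00577). It was the 1 gene of the 38 that passed in edgeR, beside 0.599% of all genes tested. DESeq2 called 2, Alox15 and Arhgef15, beside 2.71% of all genes. Arhgef15 had a log2 fold change of 0.61 (SE 0.14, adjusted p = 0.0348 in edgeR and 0.00524 in DESeq2). The other lipoxygenases there, Alox12 and Alox12e, had log2 fold changes of −0.67 (SE 0.36, adjusted p = 0.369) and 0.15 (SE 0.32, adjusted p = 0.842). These genes were named after their values were seen.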
